A study of Homo sapiens with 4 samples.

Results

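The autosomal sperm and testis antigens are genes outside the sex chromosomes whose products belong mainly to sperm or to the testis, and which have also been catalogued in tumors. The set was a list of 53 gene symbols, and a member was taken into the comparison where the array annotation named its symbol alone on a probe set. That held for 48 of the 53 genes, among 17958 genes measured in all, and each of the 48 had 1 probe set. ROPN1, ROPN1B, TPPP2, TPTE and DDX43 had no probe set that named them alone and were not analysed here. ROPN1 and ROPN1B, near-identical sperm sheath proteins, were each named on 2 probe sets together with other symbols.

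The RNA came from HCT116, an established human colorectal carcinoma line. Treated cells received 5-aza-2'-deoxycytidine (decitabine) at 1 µM, first 24 hours after plating and again 48 hours later, and were harvested after 72 hours of exposure. Control cells received vehicle. Each group had 2 samples, hybridized to 1 Affymetrix array each, and the labels do not say whether these were separate cultures, so p-values measure a spread that may be technical. The comparison of treated with vehicle arrays addresses which cancer/testis antigens were expressed after exposure to the drug. The 11 markers of colon epithelium ran from CDX1, at 5.71 in vehicle and 5.70 in treated cells, to KRT8, at 13.01 and 13.22 (means of log2 levels), with EPCAM at 11.81 and 11.09; 2 of them rose and 5 fell. The mean level of 17 markers of leukocytes, endothelium and fibroblasts was 4.52 and 4.63 on the vehicle arrays and 5.06 and 5.04 on the treated arrays; 6 of them rose and 1 fell. The rises were of the leukocyte markers CD3D (3.47-fold), CD68 (2.88-fold), CD14 (2.27-fold) and CD3E (1.89-fold), of PECAM1 of endothelium (3.46-fold) and of COL1A1 of fibroblasts (1.54-fold), and the fall was of KDR. PTPRC, carried by all leukocytes, was at 3.02 in vehicle and 3.12 in treated cells and did not pass the test. The part of such cells in the results below was not tested.

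Sperm are assembled in a long program after meiosis: an acrosome filled with enzymes is formed over the nucleus, a flagellum is built on an axoneme wrapped in dense fibers and a fibrous sheath, and surface proteins for migration and egg binding are added. Genes of this program are mostly silent in somatic cells. In a number of germline genes the promoter is held methylated at CG dinucleotides outside the germline. Decitabine is a cytidine analog that is incorporated into replicating DNA, traps DNA methyltransferases and so lowers CG methylation as cells divide. Methylation itself was not measured in these samples.

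The stretches before the transcription start are shown for RBM46, CABYR, SPAG6 and MORC1, a selection from the 9 members that rose at least 2-fold. PRSS50, which has an entry and rose about as much as MORC1, is not shown. A stretch is also shown for TEX101, which rose with few CG dinucleotides there, and for ADAM21, the member that fell most. Each is the 250 bases before the start in RefSeq (GRCh38.p14), 5′ to 3′ in the direction of transcription, with CG dinucleotides in capitals.
RBM46, chr4:154781022-154781271, plus strand, 13 CG: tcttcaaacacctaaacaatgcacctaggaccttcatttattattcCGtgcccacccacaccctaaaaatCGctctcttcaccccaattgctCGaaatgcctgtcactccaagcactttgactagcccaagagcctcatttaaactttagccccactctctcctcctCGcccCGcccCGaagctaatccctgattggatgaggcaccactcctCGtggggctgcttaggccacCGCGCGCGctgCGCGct
CABYR, chr18:24138812-24139061, plus strand, 18 CG: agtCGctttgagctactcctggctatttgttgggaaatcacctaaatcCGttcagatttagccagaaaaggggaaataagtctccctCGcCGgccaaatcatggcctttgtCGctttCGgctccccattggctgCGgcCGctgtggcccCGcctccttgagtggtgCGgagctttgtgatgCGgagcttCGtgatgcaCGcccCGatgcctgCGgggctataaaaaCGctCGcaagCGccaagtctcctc
SPAG6, chr10:22345246-22345495, plus strand, 39 CG: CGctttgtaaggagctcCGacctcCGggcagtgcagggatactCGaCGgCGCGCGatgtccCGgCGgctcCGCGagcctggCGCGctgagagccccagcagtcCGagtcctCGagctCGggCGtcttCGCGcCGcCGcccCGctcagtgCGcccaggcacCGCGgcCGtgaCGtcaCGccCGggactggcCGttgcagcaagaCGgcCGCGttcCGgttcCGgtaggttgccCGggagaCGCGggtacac
MORC1, chr3:109118135-109118384, minus strand, 17 CG: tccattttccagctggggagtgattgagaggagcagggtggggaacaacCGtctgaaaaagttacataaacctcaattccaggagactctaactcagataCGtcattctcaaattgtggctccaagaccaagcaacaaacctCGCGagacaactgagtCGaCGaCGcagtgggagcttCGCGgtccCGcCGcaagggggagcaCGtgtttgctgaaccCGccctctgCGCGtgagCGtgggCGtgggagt
TEX101, chr19:43388361-43388610, plus strand, 2 CG: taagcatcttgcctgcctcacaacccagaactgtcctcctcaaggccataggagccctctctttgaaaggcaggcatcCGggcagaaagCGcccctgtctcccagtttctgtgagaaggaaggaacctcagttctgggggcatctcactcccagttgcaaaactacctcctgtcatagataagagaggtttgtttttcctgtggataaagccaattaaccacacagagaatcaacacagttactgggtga
ADAM21, chr14:70451924-70452173, plus strand, 1 CG: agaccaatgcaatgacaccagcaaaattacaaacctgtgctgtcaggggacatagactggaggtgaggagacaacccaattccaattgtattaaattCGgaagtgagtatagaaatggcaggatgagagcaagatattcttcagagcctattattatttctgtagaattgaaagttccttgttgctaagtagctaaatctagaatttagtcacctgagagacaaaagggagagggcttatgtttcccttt
The RBM46 stretch held 13 CG, most of them in the part nearest the start. SPAG6 had 39, a count that 97.1% of the 13861 genes with an entry did not exceed. TEX101 and ADAM21 had 2 and 1, against a median of 18 over those genes. Among other members that changed, the counts were 20 for PRSS50, 20 for DMRT1, 9 for PRAME, 18 for CRISP2, 17 for TPTE2, 26 for COX6B2, 29 for CCDC110, which fell, and 19 for ARMC3, which fell. High and low counts thus occurred among members that rose and among members that fell. Only 33 of the 48 members (68.8%) had an entry, fewer than the 80% set as a minimum, so a comparison of CG content over the whole set is void and none is given. The letters CACGTG, the E-box bound by MGA and MAX, and TCCCGC, bound by E2F6, were searched on both strands and counted independently of each other; these factors are known as silencers of germline genes. CACGTG was present before 5 of the 33 members with an entry, and in 7.87% of all stretches; MORC1, TPTE2 and CRISP2 of these rose, and ODF2 and TMEFF2 did not pass the test. TCCCGC was present before 8 of the 33, and in 31.5% of all stretches; MORC1 and TPTE2 of these rose, ARMC3 fell, and SPEF2, TSGA10, IGSF11, TMEFF1 and NLRP4 did not pass. These matches are descriptions and do not show that a factor bound there. With an entry for only 33 of the 48 members, the counts give no comparison of the set with all stretches.

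Of the 48 members, 16 rose and 3 fell after decitabine (limma, adjusted p under 0.05 with Benjamini-Hochberg adjustment over all 17958 genes). That is 33.3% higher and 6.25% lower, where 12.4% of all genes rose and 15.6% fell. In either direction 39.6% of the members were called, against 28% of all genes. The members were chosen with earlier results of these data known, so these shares are not those of a list picked blind. The balance of rises and falls differed with level. In the dimmest 33.3% of genes by mean over 4 arrays, 709 of 5986 rose and 327 fell. Of the 11972 brighter genes, 1520 rose and 2467 fell. Most members, 33 of the 48, were in the dim part, where 8 of them rose and 2 fell. The mean takes in the treated arrays, so RBM46, LY6K and CABYR, dim in vehicle, counted as brighter. The counts of rises in both parts thus depend partly on the change itself. At least 2-fold rises were seen for 9 members (18.8%, against 5.05% of all genes), and at least 2-fold falls for 2 (against 2.62%). The median log2 fold change was 0.06 over the members and -0.07 over all genes, while the members' mean was 0.46: most members stayed near 0, and a minority rose far. In these bulk samples a larger share of cells with a transcript and more of it per cell cannot be told apart. Arrays of the groups did not overlap for 20 members with treated cells higher (26.3% of all genes) and for 14 with treated cells lower (39.5% of all genes). When vehicle replicate 2 was left out, 9 members rose (18.8%, against 7.43% of all genes), and when vehicle replicate 1 was left out, 11 rose (22.9%, against 7.06%). Centring the arrays on housekeeping genes moved the median of all genes by 0.11 and the share of rises among all calls from 44.4% to 59%; of the members 17 then rose and 2 fell.

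**Figure D1:**
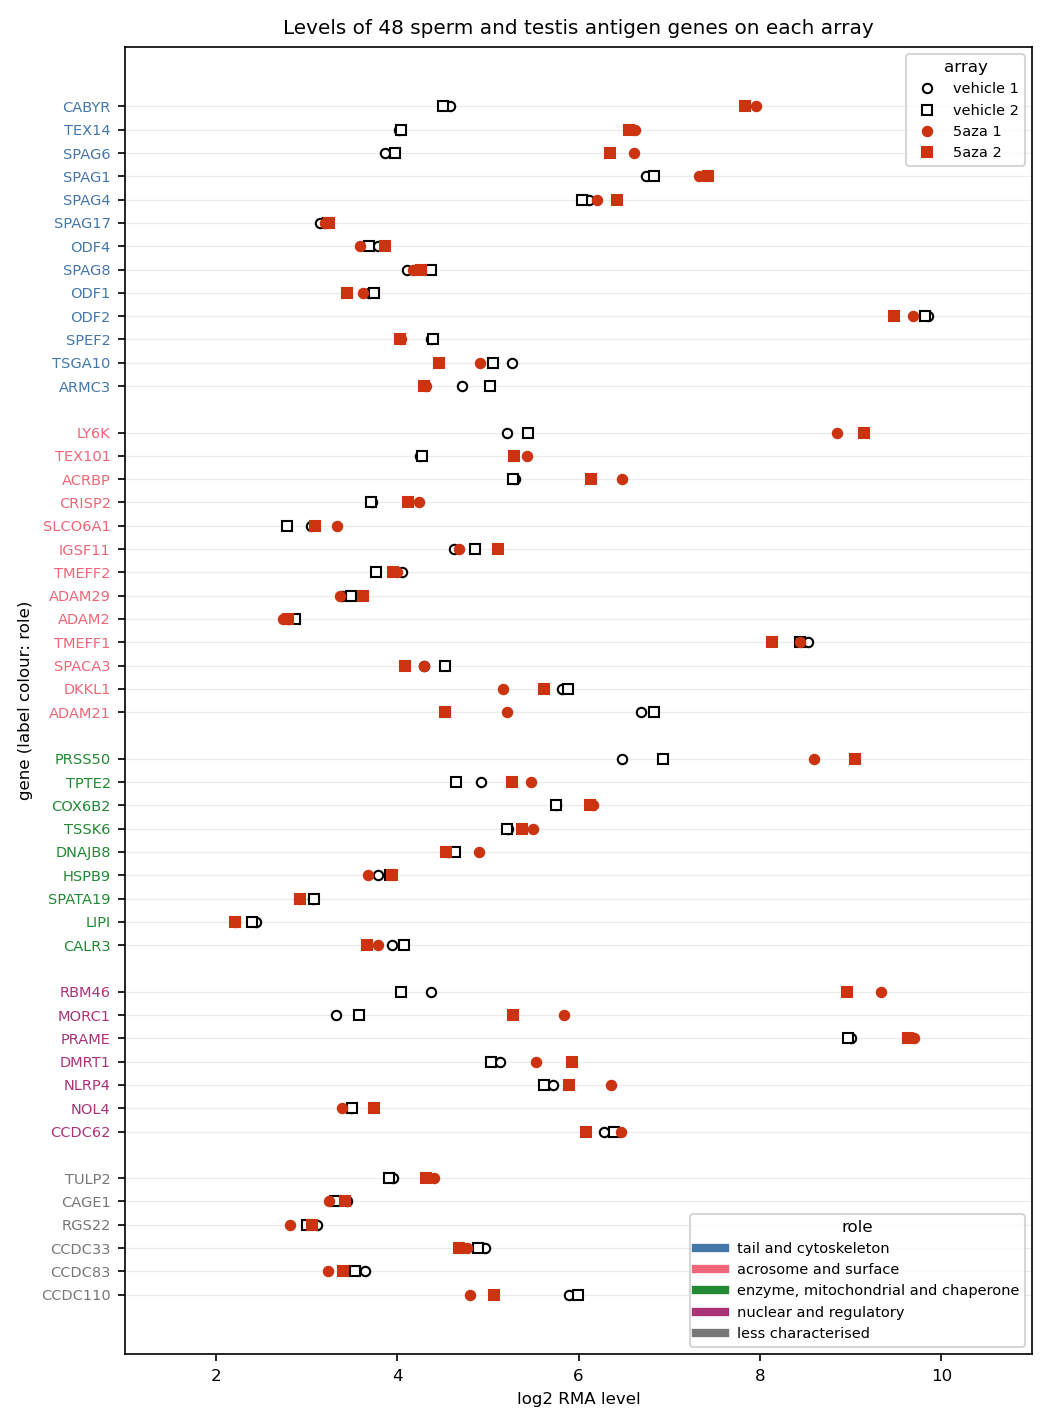
Log2 RMA level (horizontal axis) of the 48 genes (rows, grouped and coloured by role) on the 2 vehicle arrays (open symbols) and the 2 treated arrays (filled symbols). RBM46, LY6K and CABYR moved by more than 3 log2 units, from near 4 to 5 up to near 8 to 9, while for most genes the 4 symbols lie close together.

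The highest rise in the set was that of RBM46, which is grouped here with nuclear and regulatory genes. RBM46 encodes an RNA-binding protein needed for germ cell differentiation. Its log2 level was 4.38 and 4.04 on the vehicle arrays and 9.33 and 8.95 on the treated arrays, with no overlap. This is a 30.6-fold rise (log2 fold change 4.94, SE 0.18, limma adjusted p = 8.22e-06). MORC1, an ATPase that silences transposons in male germ cells, lay at 3.33 and 3.58 in vehicle and at 5.84 and 5.28 in treated cells. The treated arrays differed by more than the vehicle arrays and both were above them, and the rise was 4.32-fold (log2 fold change 2.11, SE 0.20, limma adjusted p = 0.000526).

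PRAME, an antigen first found in melanoma that acts in ubiquitin ligase complexes and nuclear receptor signaling, had signal in vehicle cells too. It lay at 9.00 and 8.98 in vehicle and at 9.70 and 9.64 in treated cells, a 1.60-fold rise (log2 fold change 0.68, SE 0.11, limma adjusted p = 0.00571). The arrays of each group were close together, yet without vehicle replicate 2 the rise missed the threshold (limma adjusted p = 0.0547). PRAME belongs to a multigene family, so a share of hybridization from relatives was not assessed. DMRT1, the transcription factor that maintains male gonadal fate, rose 1.56-fold (log2 fold change 0.64, SE 0.16), from 5.13 and 5.04 to 5.53 and 5.93. Its call was lost when either vehicle array was left out (adjusted p up to 0.121). NLRP4, an NLR protein of germ cells and oocytes, was higher on both treated arrays (6.36 and 5.89, against 5.71 and 5.62) but did not pass (log2 fold change 0.46, limma adjusted p = 0.0891). NOL4 and CCDC62 had log2 fold changes of 0.07 and -0.07. Called genes made up 57.1% of this role, against 28% of all genes. In all, 4 of the 7 nuclear and regulatory genes rose and 3 did not pass; 2 were called when vehicle replicate 2 was left out.

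Among 13 genes of the sperm tail and cytoskeleton, 4 rose, 1 fell and 8 did not pass, and 3 were called when vehicle replicate 2 was left out. CABYR, a calcium-binding protein of the fibrous sheath that is phosphorylated during capacitation, had levels of 4.58 and 4.51 in vehicle and 7.96 and 7.83 in treated cells. The pairs were tight and far apart, a 10.2-fold rise (log2 fold change 3.35, SE 0.12, limma adjusted p = 7.98e-06). TEX14, which keeps the intercellular bridges between dividing germ cells open, lay at 4.02 and 4.04 in vehicle and at 6.62 and 6.56 in treated cells, 5.90-fold higher (log2 fold change 2.56, SE 0.11, limma adjusted p = 1.93e-05). SPAG6, a protein of the central pair of the axoneme, lay at 3.87 and 3.97 and then at 6.61 and 6.35, 5.89-fold higher (log2 fold change 2.56, SE 0.14, limma adjusted p = 4.27e-05). In all 3 genes the gap between the groups was far wider than the spread within them. Over this role, 38.5% of the 13 genes were called, against 28% of all genes.

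The other tail genes moved little. SPAG1, an assembly factor for dynein arms, rose 1.51-fold (log2 fold change 0.59, SE 0.12), a call that was lost when either vehicle array was left out (adjusted p up to 0.111). ARMC3, an armadillo-repeat protein of the flagellum, fell by 0.56 on the log2 scale (SE 0.14, limma adjusted p = 0.0254), from 4.71 and 5.02 to 4.32 and 4.29. The call was lost when vehicle replicate 2 or treated replicate 2 was left out and after centring on housekeeping genes, with adjusted p up to 0.228. SPAG17, a second protein of the central pair, had a log2 fold change of 0.04 (95% interval -0.24 to 0.31), so that a rise of the size seen in SPAG6 lies outside its interval. SPAG17 was dim, at 3.19 in vehicle and 3.22 in treated cells (means), and folds of dim genes are usually compressed. The outer dense fiber genes did not pass either: ODF1 had a log2 fold change of -0.18, ODF2 of -0.25 and ODF4 of -0.01. ODF2 is also a centrosomal protein of somatic cells and lay between 9.48 and 9.85 on all 4 arrays. SPEF2, of the central pair projections, and TSGA10, of the fibrous sheath, were lower on both treated arrays than on both vehicle arrays, with log2 fold changes of -0.35 and -0.47 and adjusted p of 0.0599 and 0.0908. SPAG4, of the nuclear envelope at the tail's root, and SPAG8, a microtubule-associated protein, had values of 0.24 and -0.03.

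Among 13 genes of the acrosome, the sperm surface and sperm secretions, the counts were again 4 rises, 1 fall and 8 that did not pass. This is 38.5% called, against 28% of all genes. LY6K, a GPI-anchored surface protein needed for sperm migration, lay at 5.21 and 5.44 in vehicle and at 8.85 and 9.14 in treated cells. The groups were far apart, a 12.8-fold rise (log2 fold change 3.67, SE 0.15, limma adjusted p = 1.46e-05). TEX101, a germ cell surface protein with the same kind of anchor and known as a partner of LY6K, lay at 4.25 and 4.28 in vehicle and at 5.43 and 5.29 in treated cells, 2.14-fold higher (log2 fold change 1.10, SE 0.12, limma adjusted p = 0.000959). Whether these changes differ from each other was not tested. ACRBP, which binds the zymogen of the acrosomal protease acrosin, lay at 5.30 and 5.28 and then at 6.48 and 6.14, 2.03-fold higher (log2 fold change 1.02, SE 0.15, limma adjusted p = 0.00295). CRISP2, a cysteine-rich protein of the acrosome and tail, rose 1.38-fold (SE 0.12 on the log2 scale) and was not called when either vehicle array was left out (adjusted p up to 0.181).

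ADAM21, a membrane-bound metalloprotease-like protein of the testis, went the other way and had the largest fall among the members. It lay at 6.68 and 6.83 in vehicle and at 5.21 and 4.52 in treated cells, 3.70-fold lower (log2 fold change -1.89, SE 0.22, limma adjusted p = 0.00133). The treated arrays differed from each other by more than those of any other member, and leaving out each in turn gave log2 fold changes of -1.54 and -2.23. ADAM2 (fertilin beta) and ADAM29, members of the same family, had values of -0.07 (95% interval -0.34 to 0.20) and 0.05 (-0.27 to 0.37). The family has closely related genes and pseudogenes, and cross-hybridization was not assessed. DKKL1, an acrosomal glycoprotein, was lower on both treated arrays (5.17 and 5.62, against 5.82 and 5.89) and did not pass (log2 fold change -0.46, adjusted p = 0.0853). SPACA3, a lysozyme-like acrosomal protein, IGSF11, an adhesion molecule, the testis transporter SLCO6A1 and the transmembrane proteins TMEFF1 and TMEFF2 had log2 fold changes between -0.22 and 0.29, none of which passed. TMEFF1 lay at 8.49 and 8.29 (means of vehicle and treated arrays).

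**Figure D2:**
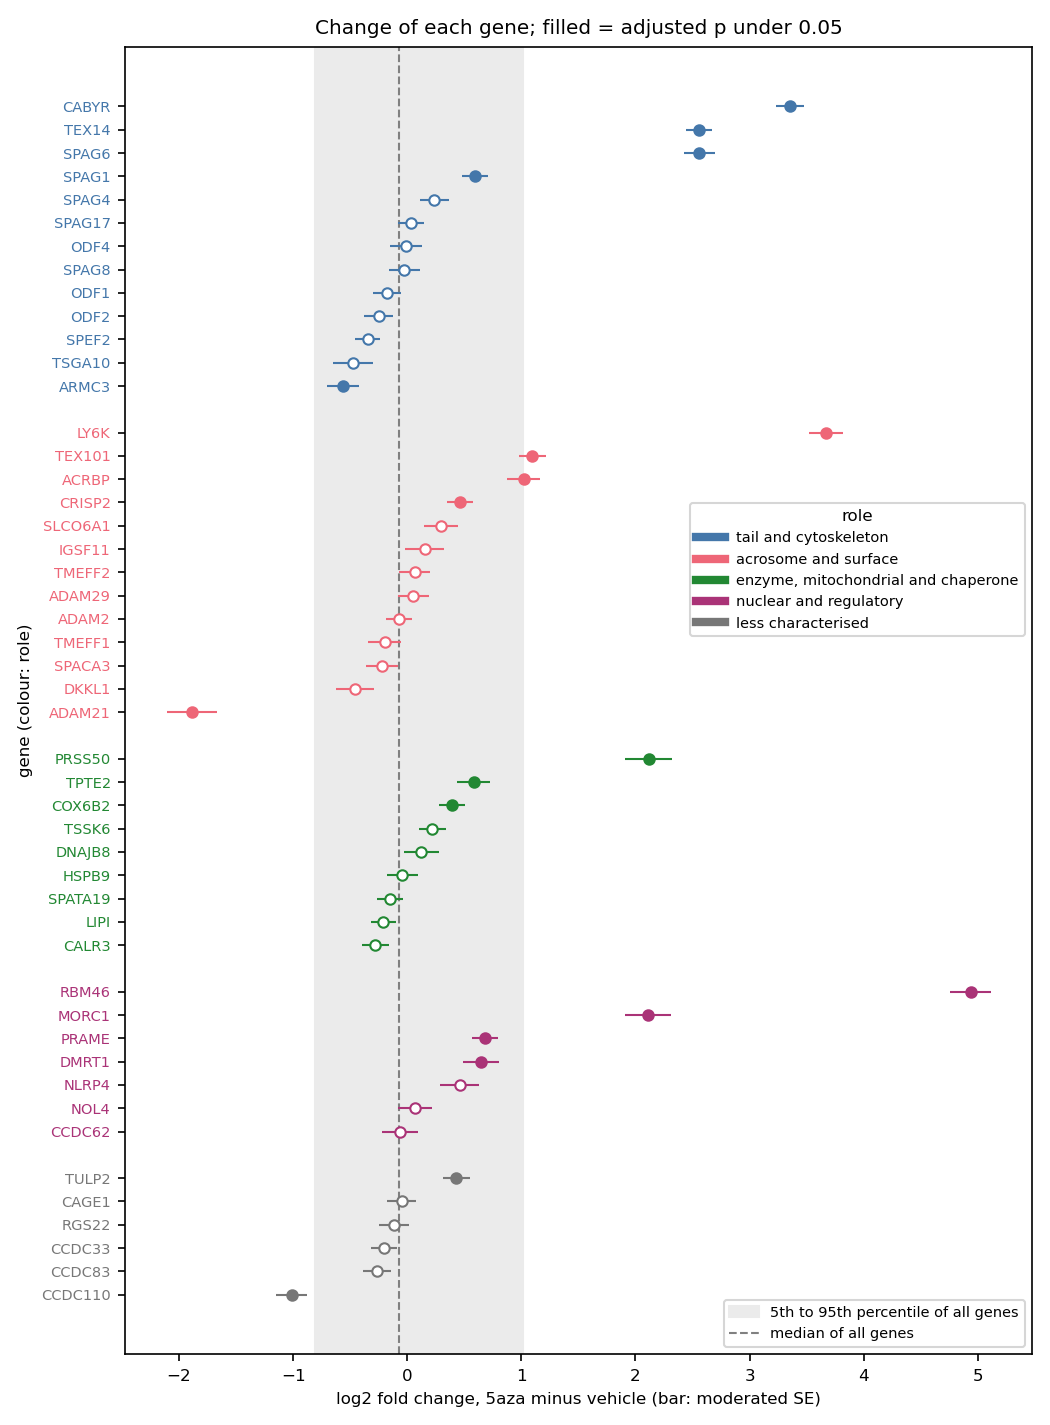
Log2 fold change, treated minus vehicle, of each of the 48 genes (rows, coloured by role), with its moderated SE as a bar; filled points passed limma's test at an adjusted p under 0.05. The shaded band spans the 5th to 95th percentile of all genes and the dashed line marks their median (-0.07): 9 genes rose at least 2-fold, led by RBM46 at 4.94, and ADAM21 at -1.89 and CCDC110 at -1.01 lie on the other side.

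Of 9 enzymes, mitochondrial proteins and chaperones, 3 rose and 6 did not pass, and 1 was called when either vehicle replicate 2 or treated replicate 1 was left out. With all arrays 33.3% of the role was called, near the 28% of all genes. PRSS50, a testis serine protease-like protein also called TSP50, lay at 6.47 and 6.93 in vehicle and at 8.59 and 9.05 in treated cells. The groups did not overlap, and the arrays numbered 2 were the higher ones in both groups; the rise was 4.34-fold (log2 fold change 2.12, SE 0.21, limma adjusted p = 0.000602). TPTE2, a phosphoinositide phosphatase, rose 1.50-fold (log2 fold change 0.58, SE 0.15). It is closely related to TPTE, which had no probe set of its own, so its value is uncertain, and its call was lost without vehicle replicate 2 and without treated replicate 1 (adjusted p up to 0.206). COX6B2, the testis isoform of a cytochrome c oxidase subunit, rose 1.31-fold (log2 fold change 0.39, SE 0.11, limma adjusted p = 0.0402), the smallest called change in the set, and lost its call when any of the 4 arrays was left out (adjusted p up to 0.246). TSSK6, a kinase of late sperm formation, had a log2 fold change of 0.22. The testis chaperones CALR3, DNAJB8 and HSPB9 had values of -0.28, 0.12 and -0.04, the phospholipase LIPI -0.21 and the mitochondrial SPATA19 -0.15; none of these passed.

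The 6 less characterised genes held 1 rise and 1 fall, of which 1 call was left when any array but treated replicate 2 was omitted. CCDC110, a coiled-coil protein known as an antigen in several tumors, lay at 5.90 and 5.99 in vehicle and at 4.80 and 5.07 in treated cells, 2.02-fold lower (log2 fold change -1.01, SE 0.14, limma adjusted p = 0.00244). TULP2, a tubby-like protein of the testis, rose 1.35-fold (log2 fold change 0.43, SE 0.12) and lost its call when any array but treated replicate 2 was left out, with adjusted p up to 0.227. CAGE1, an acrosomal antigen, RGS22, a regulator of G protein signaling in the testis, and the coiled-coil genes CCDC33 and CCDC83 had log2 fold changes between -0.27 and -0.05. None of these 4 passed. The share called over the 6 genes was 33.3%, near the 28% of all genes. For all 29 members that did not pass, the 95% intervals of the log2 fold change ran from no lower than -0.89 to no higher than 0.86. A 2-fold change thus lay outside each of them on this scale, which usually compresses the folds of dim genes. The intervals rest on 2 arrays per group, whose spread may be technical. Of the 29, 4 had an unadjusted p under 0.05.

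**Figure D3:**
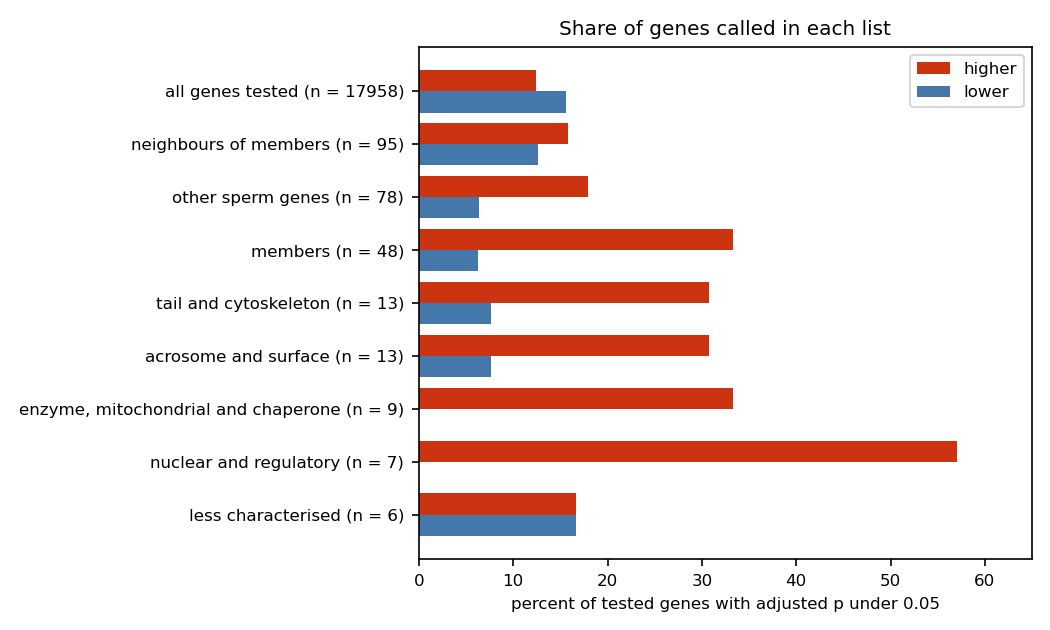
Share of tested genes that rose or fell (horizontal axis, percent; number tested in brackets) for all genes, the nearest genes of the members, the other sperm genes, the 48 members and the 5 roles. Rises reached 33.3% of the members and 17.9% of the other sperm genes, against 12.4% of all genes. Both lists were chosen with earlier results of these data known. Falls were the smaller share among both lists, and also among the dimmest 33.3% of all genes (327 falls and 709 rises of 5986). Most genes of both lists lie in that dim part. It is set by the mean over all arrays, treated ones included, so a gene that rose far can leave it.

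A wider list of 85 other genes, of which 78 were tested, gave 14 rises and 5 falls. It is called the other sperm genes here, and most of its genes belong to sperm and spermatids. Meiotic and germ cell genes and relatives of members were included too. Of these, NLRP7, NLRP5, MORC2, TEX15, SPATA22 and TEX19 were among the rises. The share of rises was 17.9% and that of falls 6.41%, beside 12.4% and 15.6% of all genes. This list too was chosen with earlier results of these data known. The median log2 fold change was -0.05. Of the 78 genes, 63 lay in the dimmest 33.3%, where 8 rose and 4 fell. Among all 5986 genes that dim, 709 rose and 327 fell. This split uses the mean over all arrays, treated ones included, so COX8C, at 5.02 in vehicle, counted as brighter. The 4 rises with the smallest p-values were of COX8C, a testis subunit of cytochrome c oxidase (log2 fold change 3.91, SE 0.18), PRSS21 (testisin), a GPI-anchored sperm protease (3.09, SE 0.19), NLRP7, a relative of NLRP4 (1.56, SE 0.11), and HSPA2, the testis heat shock protein (1.65, SE 0.12). The falls with the smallest p-values were of AKAP3, a scaffold of the fibrous sheath (-0.85, SE 0.12), CATSPER2, a sperm calcium channel subunit (-0.73, SE 0.12), TEKT3, a flagellar tektin (-0.59, SE 0.12), and TSSK4, a relative of TSSK6 (-0.49, SE 0.13). CATSPER2, TEKT3 and TSSK4 lost their calls in some fits without 1 array, and this list had 2 falls when vehicle replicate 1 was left out and 1 when vehicle replicate 2 was, and 3 after centring on housekeeping genes. The genes of the last steps of sperm chromatin packing did not pass: PRM1 and PRM2, the protamines, had values of -0.30 and -0.17, and TNP1 and TNP2, the transition proteins, 0.19 and -0.10. The acrosomal genes ACR, SPAM1 and IZUMO1 had values of 0.31, -0.19 and 0.03 and did not pass either.

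The nearest tested gene on each side in RefSeq gave 95 genes that are not members, of which 15 rose (15.8%) and 12 fell (12.6%), against 12.4% and 15.6% of all genes, with a median of -0.03. The fit that omitted vehicle replicate 1 called 9 of these neighbours higher and 7 lower, and the one that omitted vehicle replicate 2 called 9 and 6. Of the 32 beside members that rose, 8 rose (25%) and 5 fell (15.6%), and of the 58 beside members that did not pass, 7 rose (12.1%) and 6 fell (10.3%); the difference between these was not tested. Beside members that rose, 5 neighbours rose and 3 fell when vehicle replicate 1 was left out, and 5 and 2 when vehicle replicate 2 was. Next to RBM46 on chromosome 4, LRAT, a retinol acyltransferase, fell by 1.07 on the log2 scale and NPY2R, a neuropeptide receptor, had a value of -0.21. On either side of CABYR on chromosome 18, OSBPL1A fell by 0.59 and TTC39C had a value of -0.32, and on either side of LY6K on chromosome 8, THEM6 fell by 0.98 and PSCA had a value of 0.04. SEPTIN4 and RAD51C beside TEX14, with values of -0.36 and 0.00, did not pass.

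The largest change beside a member changed at least 2-fold was on chromosome 3. DPPA2, an early embryo and germline chromatin factor, is the nearest tested gene on 1 side of MORC1. It lay at 2.90 and 3.33 in vehicle and at 8.60 and 7.57 in treated cells, 31.3-fold higher (log2 fold change 4.97, SE 0.32, limma adjusted p = 9.32e-05), while GUCA1C on the other side had a value of 0.13. In both MORC1 and DPPA2 the first treated array was the higher one. The same held for RBM46, CABYR, TEX14, SPAG6, TEX101 and ACRBP, but not for LY6K and PRSS50, so it is not particular to this pair. Beside PRAME, which rose by 0.68, ZNF280A rose by 2.11 (limma adjusted p = 4.5e-05), and GGTLC2 on the other side had a value of 0.19. Large changes also occurred beside members that did not pass. SLCO4C1 beside SLCO6A1 had a value of 3.35, and C2orf15 beside TSGA10 of -1.69. Called rises of at least 2-fold made up 6.25% of the neighbours of members that rose. The share was 6.9% beside members that did not pass and 5.05% over all genes. LYPD3, beside TEX101 on chromosome 19, rose by 0.81. SPAG6 and ARMC3 on chromosome 10 have the same neighbour, PIP4K2A, a lipid kinase gene that lies between them. PIP4K2A rose by 0.47 (SE 0.13, limma adjusted p = 0.0355), a call lost when any array but treated replicate 2 was left out. Along this stretch SPAG6 and PIP4K2A rose and ARMC3 fell. BMI1, on the other side of SPAG6, had a value of 0.27. Next to PRSS50, TMIE rose by 0.44, a call lost in the same fits and in 2 others, and PRSS45P had a value of 0.32. Beside ACRBP, ING4 and SCARNA11 fell by 0.77 and 0.48, and of the genes beside ADAM21 and CCDC110 none passed.

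**Figure D4:**
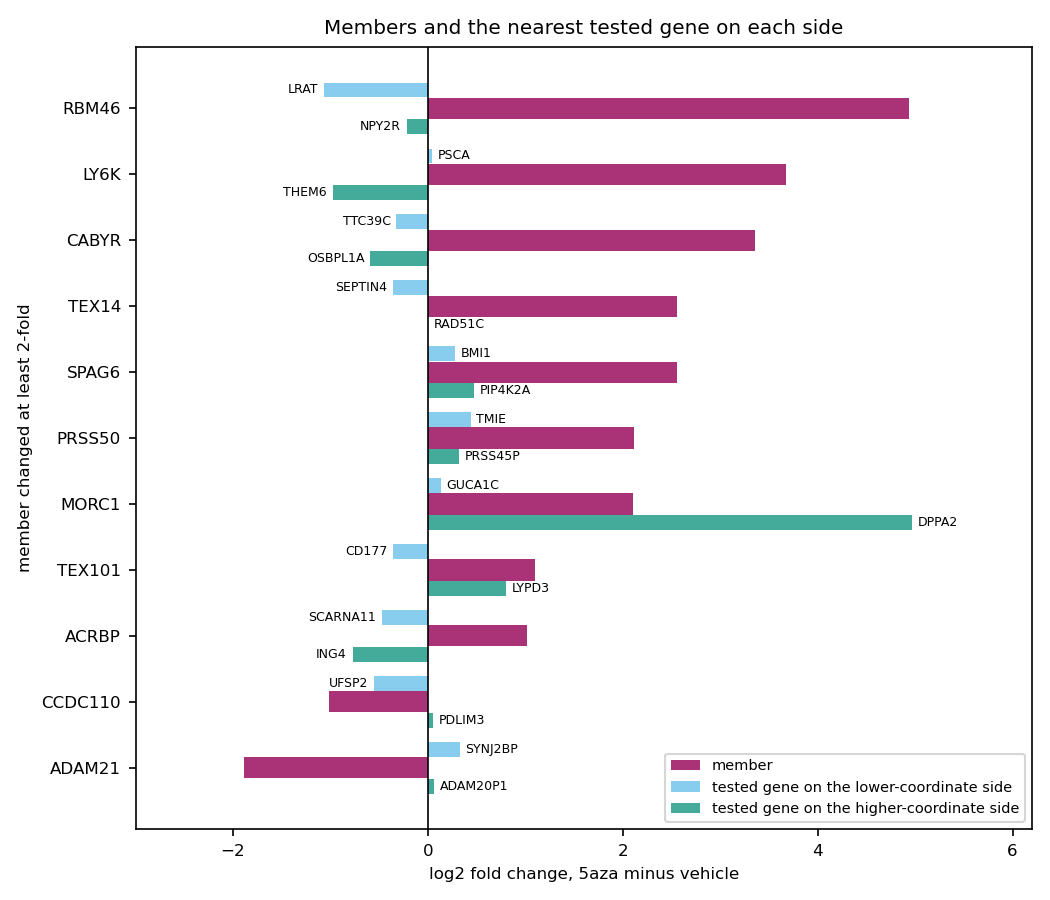
Log2 fold change, treated minus vehicle, of the 11 members that changed at least 2-fold (thick bars) and of the nearest tested gene on each side (thin bars). DPPA2, beside MORC1, reached 4.97, and the other neighbours lie between -1.07 and 0.81.

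The larger changes held under every setting tried. The 9 members that rose at least 2-fold, as well as ADAM21 and CCDC110, kept their calls and directions under all 10 alternative settings, or under 9 where the filter on dim genes removed them. Their log2 fold changes moved by differing amounts. RBM46 ran from 4.75 to 5.13, LY6K from 3.53 to 3.82, CABYR from 3.29 to 3.46 and ACRBP from 0.85 to 1.19. MORC1 ran from 1.83 to 2.39, PRSS50 from 1.89 to 2.35, ADAM21 from -2.23 to -1.54 and CCDC110 from -1.15 to -0.88. The changes of ACRBP and CCDC110 were thus under 2-fold in some settings. The 7 smaller rises and the fall of ARMC3 each lost their call under at least 1 setting.

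**Figure D5:**
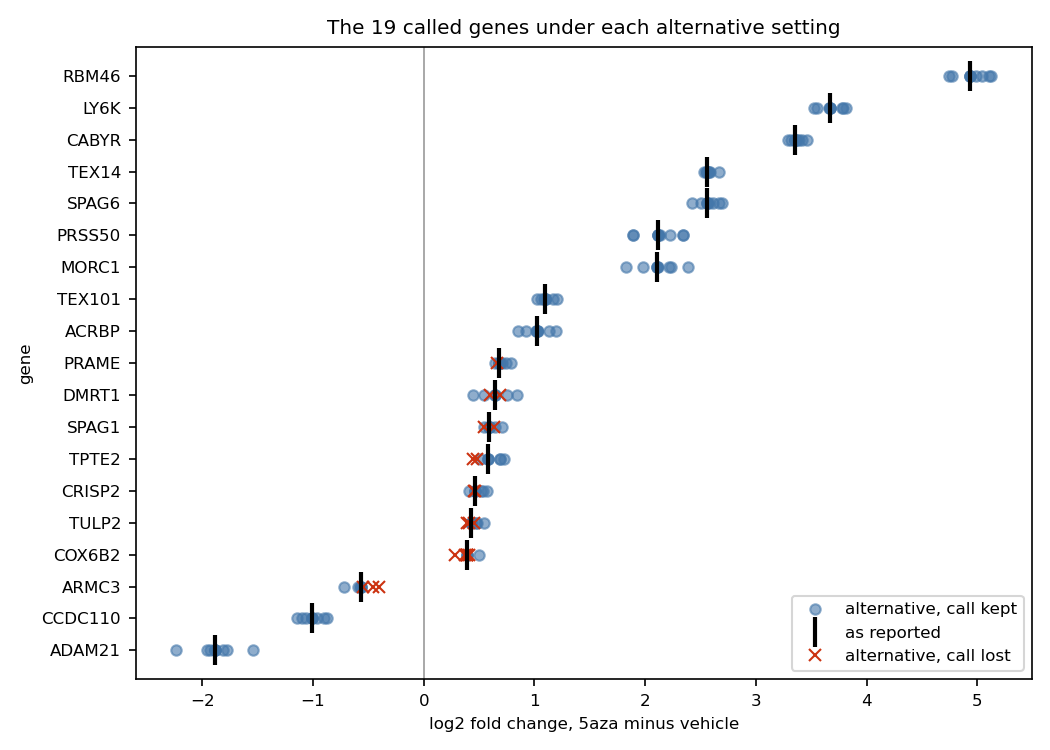
Log2 fold change, treated minus vehicle, of the 19 called genes (rows) as reported (black tick) and under each alternative setting (points; a cross marks a setting in which the gene did not pass the test). Genes that changed at least 2-fold carry no cross, and those between -0.56 and 0.68 carry at least 1.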

How the data were processed

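Levels are log2 values that the authors deposited, 1 per probe set and array, made with Affymetrix Expression Console and RMA per the submitters' processing notes; software versions, probe set definition and genome build: not given in the sources used here. RMA brings the arrays to similar distributions, so a change in total RNA per cell cannot be seen, and folds of dim genes are usually compressed. The table has no detection calls. The platform annotation named 19181 of 33297 probe sets with 1 symbol, 2055 with several and 12061 with none; the brightest probe set over 4 arrays stood for each of 17958 genes. Of these, 17930 matched RefSeq by gene ID.

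The test was limma's (version 3.58.1, under R 4.3.3; lmFit, eBayes, no covariate, 2 residual degrees of freedom), two-sided, with Benjamini-Hochberg adjustment over all genes and a threshold of 0.05. An exact permutation test of 2 against 2 arrays cannot go below 0.333. Precision is limited by 2 arrays per group. Pearson's r across probe sets was 0.995 and 0.992 within groups and 0.966 to 0.971 between them. Every member is accounted for; those called and changed at least 2-fold are given on each array, with their neighbours, and of the other sperm genes the 4 of smallest p per direction. Members and lists were chosen with earlier results of these data known. Roles follow general knowledge of each gene. The planned comparison of paralog proteins was not run.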

Additional observations from a re-analysis of the deposited data

How the results depend on the processing

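All 11 members that changed at least 2-fold kept their call in every alternative that tested them. Leaving out 1 array at a time gave 9 to 16 rises and 2 to 4 falls among the members (16 and 3 with all arrays), a median of -0.02 to 0.11, and by role 3 to 6 calls for tail and cytoskeleton, 4 to 6 for acrosome and surface, 1 to 2 for enzymes, mitochondrial proteins and chaperones, 2 to 5 for nuclear and regulatory and 1 to 2 for less characterised genes. Over all genes it gave 1267 to 2530 rises and 1196 to 3401 falls, for the other sperm genes 1 to 5 falls, and for the neighbours 9 to 14 rises and 6 to 18 falls (5 to 7 and 2 to 7 among those of members that rose, a count added after seeing the data).

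The labels do not say that equal replicate numbers pair the samples, and the deviations of same-numbered arrays correlated at 0.27 over all genes. With the replicate number as a block, 17 members rose and 6 fell (SPEF2, TSGA10 and DKKL1 were added), 8 other sperm genes fell and 20 neighbours fell; NLRP4 passed too. Housekeeping centring gave 3 falls among the other sperm genes.

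Without the dimmest 33.3% of genes by their mean over 4 arrays, 15 members were left, of which 8 rose and 1 fell, with a median of 0.46. Calls by role were then 2 for tail and cytoskeleton, 3 for acrosome and surface, 2 for nuclear and regulatory and 0 for less characterised genes, of which 0 were tested. The other sperm genes had 6 rises and 2 falls. This filter keeps a gene that is dim in vehicle if it rose far enough, so these counts support nothing; fewer genes were tested.

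Directions of genes that did not pass turned in places, and the cause was not tested. Leaving out 1 array gave log2 fold changes of -0.0093 to 0.0801 for SPAG17, -0.15 to 0.13 for ODF4, -0.16 to 0.11 for SPAG8, -0.0621 to 0.37 for IGSF11, -0.0738 to 0.21 for TMEFF2, -0.0759 to 0.18 for ADAM29, -0.0605 to 0.31 for DNAJB8, -0.17 to 0.0913 for HSPB9, -0.11 to 0.25 for NOL4, -0.26 to 0.13 for CCDC62, -0.14 to 0.043 for CAGE1, -0.24 to 0.0037 for RGS22, -0.0394 to 0.046 for RAD51C, -0.0223 to 0.10 for PSCA and -0.0565 to 0.16 for PDLIM3. Repeated quantile normalization turned ODF4 to 0.10, ADAM2 to 0.0643, HSPB9 to 0.0504, CAGE1 to 0.0807, RGS22 to 0.0235 and PSCA to -0.0712. Housekeeping centring turned ODF4 to 0.10, SPAG8 to 0.0833, ADAM2 to 0.0397, HSPB9 to 0.0682, CCDC62 to 0.0435 and CAGE1 to 0.0627, and the mean of probe sets turned PSCA to -0.13.

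The table holds no detection calls, each group has 2 arrays, and 33 of the 48 members lay in the dimmest 33.3% of genes, where folds on this scale understate changes.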
